A study of Mus musculus with 12 samples.

Results

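The 35 genes described here encode the proteins of tight junctions and desmosomes, the contacts that seal and rivet epithelial cells together. They were given as a list of mouse gene symbols, matched by Ensembl ID, and all 35 were found among the 52636 genes measured and passed the filter that left 24065 genes for testing. The list holds 24 tight junction genes and 11 desmosome genes. The tissue was pancreatic ductal adenocarcinoma from KPC mice, a genetic model whose alleles include mutant p53 in the pancreas, on a C57BL/6 and 129 background. Every tumour carried the KPC alleles. The 4 groups were gemcitabine-treated Cdh11+/- mice, gemcitabine-treated Cdh11+/+ mice, untreated Cdh11+/- mice and untreated Cdh11+/+ mice, with 3 mice each. Cdh11 encodes cadherin-11, an adhesion protein best known from fibroblasts and other mesenchymal cells, and gemcitabine is a nucleoside analogue used against pancreatic cancer. The sources used here name neither the Cre driver, the age of the mice, nor the dose and schedule of the drug. The samples were bulk tumour pieces, so that fewer cells of a type and less RNA per cell cannot be told apart in any value below.

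Tight junctions form a belt near the apical surface of epithelial cells. Claudins are the membrane proteins that set which ions and solutes pass between cells, occludin and the tricellulin family organise the strands, and ZO scaffold proteins such as Tjp1 and Tjp3 tie them to actin. Desmosomes are spot contacts in which the cadherins Dsg and Dsc are linked by plakoglobin, plakophilins and desmoplakin to keratin filaments. In ductal carcinomas these genes are read mainly as a mark of the epithelial compartment, and the Snail and Zeb transcription factors are known to repress several of them in cells that take on mesenchymal features.

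Libraries held between 39388328 and 56559413 counts, with a median of 45785246. Values are CPM, counts scaled to a common library size by the TMM method, and their ± gives the SD between the 3 mice of a group. Cdh11 itself lay between 72.0 and 141 CPM in gemcitabine-treated Cdh11+/- tumours and between 62.2 and 142 CPM in gemcitabine-treated Cdh11+/+ tumours, so its RNA did not separate the treated genotypes. It lay between 73.7 and 148 CPM in untreated Cdh11+/- tumours and between 165 and 283 CPM in untreated Cdh11+/+ tumours, without overlap. The sum of the simple epithelial keratins Krt8, Krt18 and Krt19 was 2727, 2058 and 1932 CPM in gemcitabine-treated Cdh11+/- tumours, 2679, 2793 and 5561 CPM in gemcitabine-treated Cdh11+/+ tumours, 3459, 2721 and 2656 CPM in untreated Cdh11+/- tumours, and 2159, 1963 and 3671 CPM in untreated Cdh11+/+ tumours. Keratins were therefore abundant in every library, and the third treated Cdh11+/+ tumour held the most. The same tumour had the highest typical level of the 35 junction genes, with a median deviation of 0.69 on the log2 scale from each gene's mean over the 12 libraries, where the other 11 lay between -0.27 and 0.22.

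All 35 genes had counts in all 12 libraries, and 26 averaged above 10 CPM. Per kilobase of exon, the most abundant was Epcam, an epithelial adhesion protein that binds claudin-7, with a mean of 124 CPM per kb over the 12 tumours. Among the claudins, Cldn4 averaged 104 CPM per kb, the cation pore former Cldn2 85.2 and Cldn6, a claudin of embryonic epithelia, 45.3. The other membrane proteins were led after Epcam by the immunoglobulin-type adhesion protein F11r (JAM-A) at 48.8 CPM per kb and by occludin, Ocln, at 10.6. Among the plaque proteins, the ZO-1 gene Tjp1 averaged 43.6 CPM per kb, cingulin, Cgn, 23.0, and the ZO-3 gene Tjp3 13.2. The desmosome was represented by desmoplakin, Dsp, at 42.2 CPM per kb, plakoglobin, Jup, at 29.9, and periplakin, Ppl, at 23.3. Its cadherins were the widely expressed pair Dsg2 at 14.8 and Dsc2 at 6.63 CPM per kb, while the cadherins of stratified epithelia, Dsg3 and Dsc3, averaged 0.246 and 0.152. Lowest with them were Cldn8 at 0.347 and Cldn11 at 0.163 CPM per kb.

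**Figure D1:**
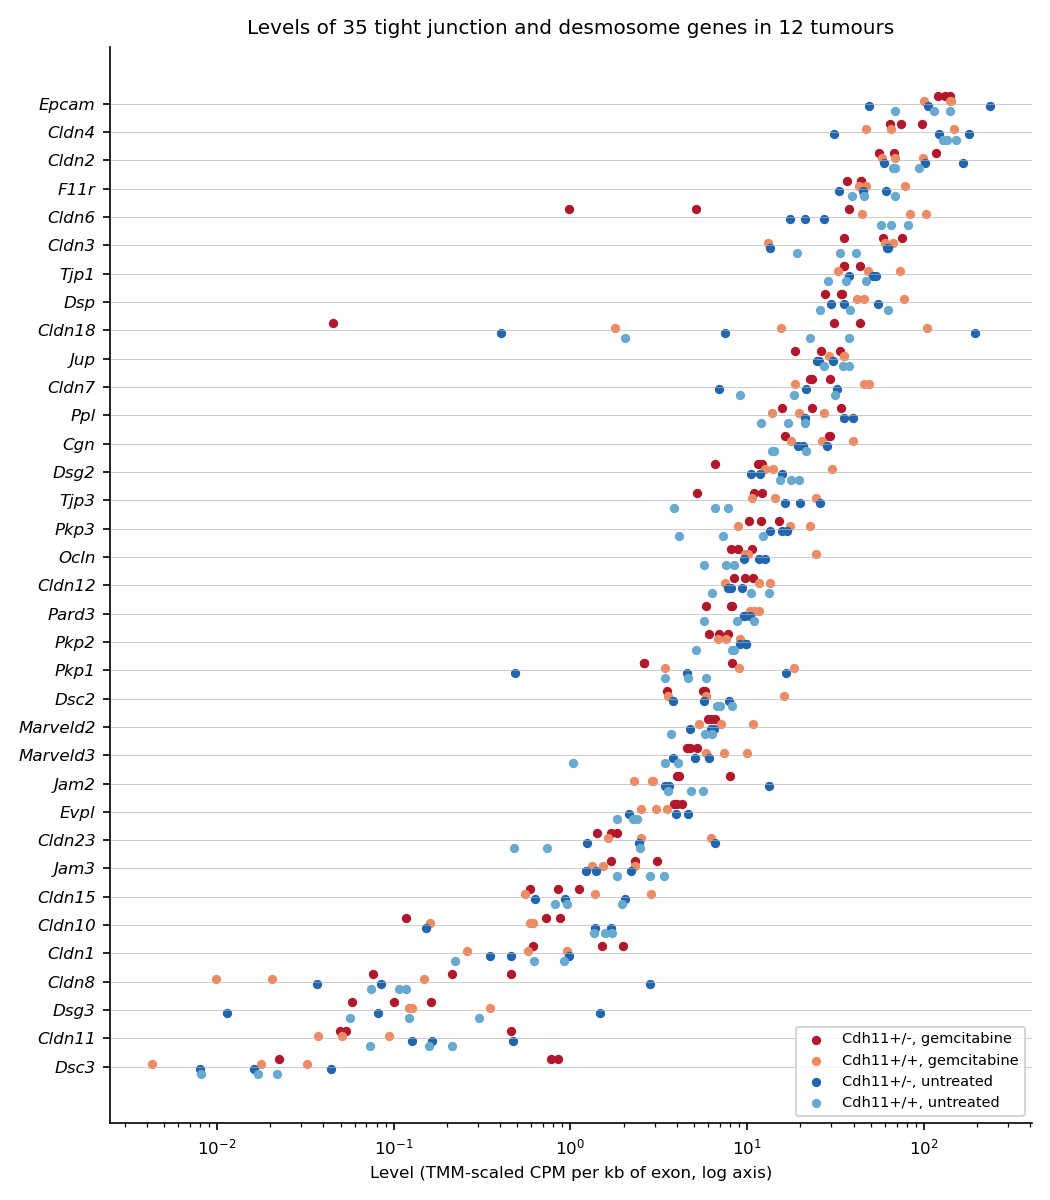
Level of each of the 35 junction genes in each tumour (CPM per kilobase of exon, log axis), coloured by group and ordered by the mean over 12 tumours, from Epcam at 124 to Dsc3 at 0.152 CPM per kb. Most genes form narrow clouds in which the 4 groups mix, while Cldn6, Cldn8, Cldn18, Dsg3, Dsc3 and Pkp1 are spread widely between tumours.

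The genes differed in how far single tumours lay apart. For 12 of the 35, among them Tjp1, Cgn, Pard3, F11r, Dsp, Jup, Pkp2 and Cldn2, the highest library was less than 3 times the lowest. For 9 it was more than 10 times, and these were Cldn6, Cldn8, Cldn10, Cldn11, Cldn18, Cldn23, Dsg3, Dsc3 and Pkp1. Cldn18, a claudin of stomach epithelium, stood at 139, 195 and 0.201 CPM in gemcitabine-treated Cdh11+/- tumours, 7.94, 465 and 69.1 CPM in gemcitabine-treated Cdh11+/+ tumours, 33.4, 1.81 and 867 CPM in untreated Cdh11+/- tumours, and 167, 101 and 9.05 CPM in untreated Cdh11+/+ tumours. Each of the 4 groups thus held a tumour below 10 CPM beside others far above it. The untreated Cdh11+/- tumour with 867 CPM was also the one with 2637 CPM of the gastric mucin Muc5ac, which lay at or below 114 CPM in the other 11. The 2 genes did not go together elsewhere. The 114 CPM of Muc5ac, from 5671 counts, lay in the third treated Cdh11+/- tumour, where Cldn18 was lowest, at 0.201 CPM. The treated Cdh11+/+ tumour with 465 CPM of Cldn18 held 1693 counts of Muc5ac.

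Among the desmosome genes, the cadherin gene Dsg3 and the plaque gene Pkp1 followed single tumours as well. Dsg3, desmoglein-3, reached 10.2 CPM in the second untreated Cdh11+/- tumour and stood at or below 2.45 CPM elsewhere. Pkp1, plakophilin-1, stood at 13.1, 13.1 and 41.1 CPM in gemcitabine-treated Cdh11+/- tumours, 17.3, 92.7 and 45.3 CPM in gemcitabine-treated Cdh11+/+ tumours, 22.9, 82.9 and 2.44 CPM in untreated Cdh11+/- tumours, and 23.2, 29.5 and 17.3 CPM in untreated Cdh11+/+ tumours. Its highest values belonged to a treated Cdh11+/+ and an untreated Cdh11+/- tumour. The basal keratin Krt5 was at or near 0, with at most 2.44 CPM in the second treated Cdh11+/+ tumour, the library in which Pkp1 was also highest. Krt14, another basal keratin, was far more abundant there, with 2060 counts, its highest value. It held 406 counts in the second untreated Cdh11+/- tumour. In the first treated Cdh11+/- tumour, where Pkp1 stood at 13.1 CPM, it held 623 counts.

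**Figure D2:**
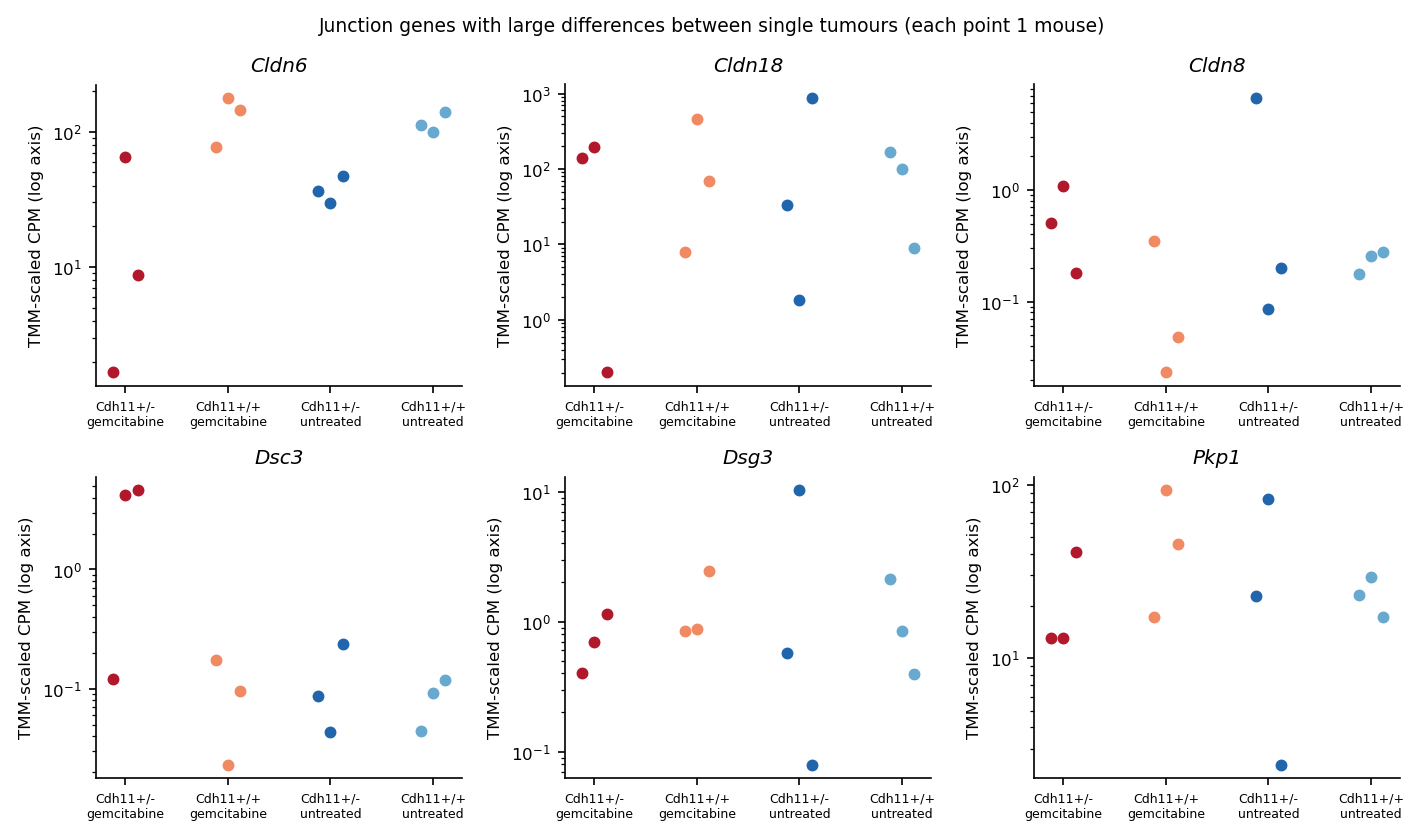
CPM (log axis) of 6 junction genes in each of the 12 tumours, 3 points a group, with no mean drawn. Dsc3 is high in 2 tumours of the treated Cdh11+/- group, Cldn8, Cldn18 and Dsg3 each reach their maximum in 1 untreated Cdh11+/- tumour, and Cldn6 lies below all Cdh11+/+ tumours in every Cdh11+/- tumour.

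The first comparison asked how Cdh11+/- tumours differed from Cdh11+/+ tumours without drug. The junction genes with the smallest p-values all had the higher mean in Cdh11+/- tumours: the scaffold Tjp3, the plaque proteins envoplakin (Evpl), periplakin (Ppl) and plakophilin-3 (Pkp3), and the claudin Cldn8. None of the 35 passed edgeR's quasi-likelihood test at a Benjamini-Hochberg adjusted p of 0.05, which 0.0166% of all genes tested did. DESeq2 called 1, Tjp3. Over all genes DESeq2 called far more than edgeR in every comparison, with totals in the last section, so its junction calls here and below are to be read beside those totals. At an unadjusted p under 0.05 there were 5 of the 35 (14.3%), against 12.2% of all genes tested. In 11 of the 35 (31.4%) the log2 fold change was below 0, against 46.3% of all genes, and the median was 0.40 over the 35 and 0.04 over all genes tested. The Cdh11+/- and Cdh11+/+ tumours did not overlap in 6 of the 35 (17.1%), against 15.8% of all genes, with Tjp3, Ocln, Pkp2, Pkp3 and Ppl higher and Cldn6 lower in Cdh11+/- tumours.

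Tjp3 (ENSMUSG00000034917, chr10:81273207-81291581 on the minus strand of GRCm38) encodes ZO-3, a scaffold that binds claudins and occludin. It stood at 96.1, 60.7 and 74.1 CPM in untreated Cdh11+/- tumours, against 29.1, 24.5 and 14.3 CPM in untreated Cdh11+/+ tumours. The lowest Cdh11+/- tumour was above the highest Cdh11+/+ tumour. The estimate was 3.40-fold higher in Cdh11+/- tumours, with a 95% interval of 1.84 to 6.29 (log2 1.77 ± 0.40 SE, edgeR adjusted p = 0.186). The last exon of Tjp3 overlaps at its 3′ end with that of Apba3 on the opposite strand, and the sources used here do not say whether reads were counted by strand. Apba3, named after its values were seen, lay between 16.9 and 23.9 CPM in all 12 tumours.

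The desmosomal plaque genes Ppl, Pkp3 and Evpl link cadherins and keratins or reinforce that link. Ppl averaged 220 ± 65.6 CPM in untreated Cdh11+/- tumours and 115 ± 32.2 CPM in untreated Cdh11+/+ tumours (SD, n = 3 each; log2 difference 0.93 ± 0.36 SE, edgeR adjusted p = 0.336). Pkp3 stood at 56.8, 60.8 and 48.5 CPM in Cdh11+/- tumours, against 44.6, 26.5 and 14.9 CPM in Cdh11+/+ tumours (log2 0.95 ± 0.40 SE, edgeR adjusted p = 0.371). Both genes separated the groups, Ppl only narrowly, since its lowest Cdh11+/- and highest Cdh11+/+ tumours both rounded to 146 CPM, whereas Evpl, with 25.4, 29.7 and 13.7 CPM in Cdh11+/- tumours and 14.4, 15.2 and 11.7 CPM in Cdh11+/+ tumours, did not. Cldn8, a claudin of kidney and colon, rested on a single library: it held 302, 4 and 10 counts in untreated Cdh11+/- tumours and 8, 11 and 14 counts in untreated Cdh11+/+ tumours, and its log2 difference of 3.27 ± 1.44 SE became -0.71 without the first of these Cdh11+/- tumours. The median of the 35 was 0.09 without the second untreated Cdh11+/- tumour and 0.26 without the third. Beside these values, 10 of 10 fibroblast markers had a log2 fold change below 0 (median -1.40), and their sum lay between 4154 and 6808 CPM in untreated Cdh11+/- tumours and between 10893 and 17053 CPM in untreated Cdh11+/+ tumours. Endothelial markers were below 0 in 10 of 10 (median -0.81), and keratins and duct markers above 0 in 7 of 8 (median 0.27). Acinar markers were below 0 in 11 of 12 (median -7.86) and islet markers in 10 of 10 (median -5.28). Acinar sums overlapped, at 19.8, 7.02 and 33.0 CPM in untreated Cdh11+/- and 9.46, 181 and 500 CPM in untreated Cdh11+/+ tumours. Islet markers summed to 6.68, 4.88 and 5.14 CPM in the former and 20.7, 288 and 73.8 CPM in the latter, without overlap. Their part in the result was not tested.

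**Figure D3:**
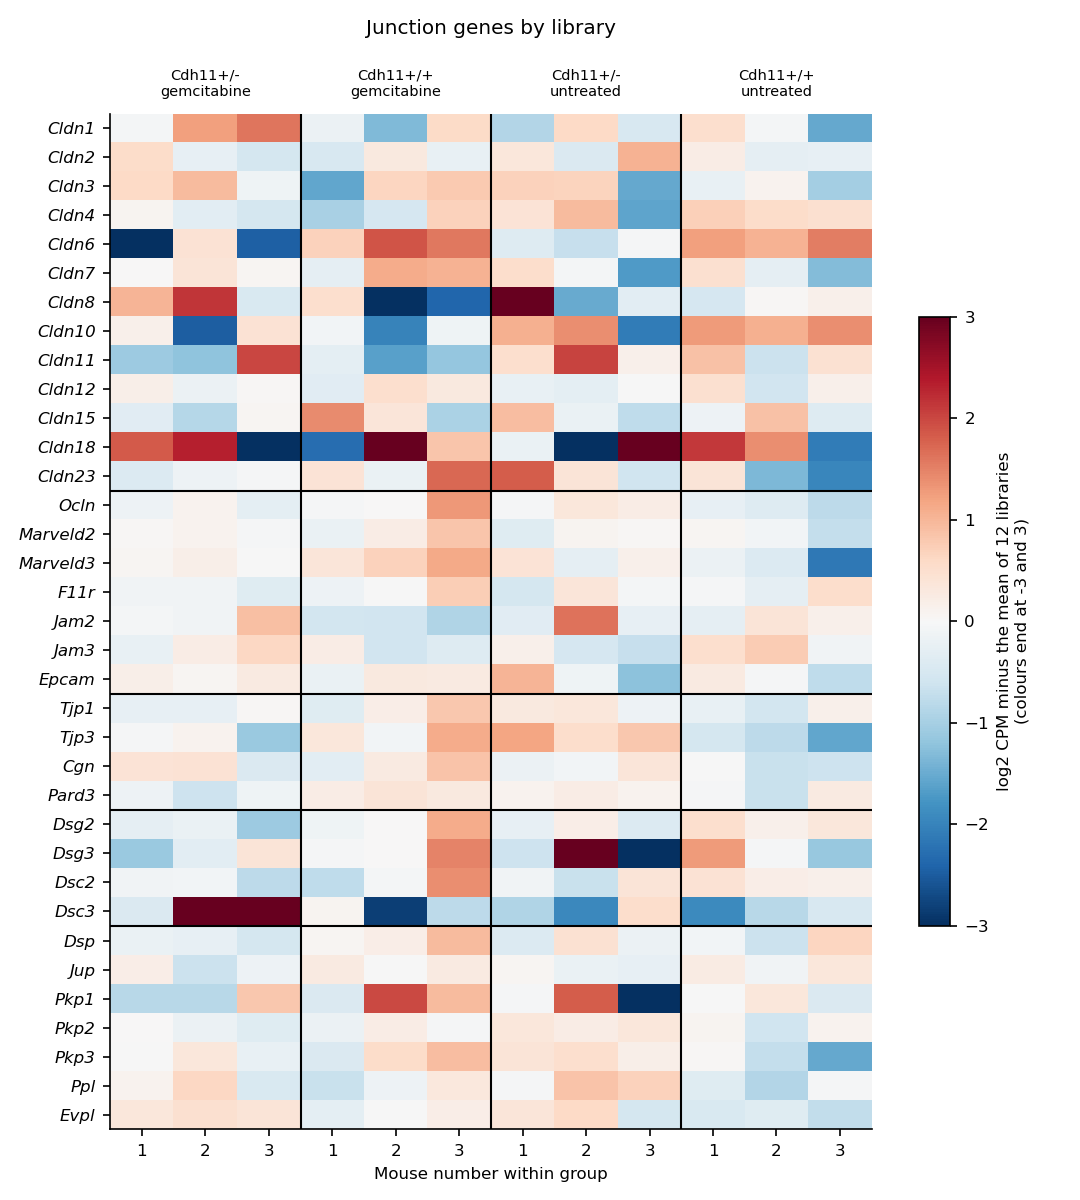
log2 CPM of each junction gene in each tumour minus its mean over the 12 tumours (colours end at -3 and 3), with groups in columns and roles separated by lines: claudins, other tight junction membrane proteins, tight junction plaque, desmosomal cadherins and desmosomal plaque. The third treated Cdh11+/+ tumour is warm in most rows, and Tjp3 is warm in all 3 untreated Cdh11+/- tumours and cool in all 3 untreated Cdh11+/+ tumours.

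The second comparison set the genotypes against each other under gemcitabine. Here the junction genes with the smallest p-values were mostly lower in Cdh11+/- tumours, namely Dsg2, Cldn6, the polarity protein gene Pard3 and Dsp, while Dsc3 was higher in 2 of 3. The edgeR test called 0 of the 35 and 0.00416% of all genes, and DESeq2 called 1, Dsc3. An unadjusted p under 0.05 was found for 5 of 35 (14.3%), against 7.55% of all genes. In 23 of the 35 (65.7%) the log2 fold change was below 0, against 53.1% of all genes, with a median of -0.34 over the 35 and -0.03 over all genes tested. The groups did not overlap in 7 of the 35 (20.0%), against 13.7% of all genes, with Jam2 and Evpl higher and Cldn6, Marveld3, Pard3, Dsg2 and Dsp lower in Cdh11+/- tumours. Without the third treated Cdh11+/+ tumour the median of the 35 was -0.09. In the same comparison 8 of 8 keratins and duct markers had a log2 fold change below 0 (median -0.54), with sums of 2841 to 4214 CPM in treated Cdh11+/- tumours and 3670 to 7908 CPM in treated Cdh11+/+ tumours. Leukocyte markers were above 0 in 10 of 10 (median 1.49), with sums of 536 to 768 CPM in treated Cdh11+/- tumours and 237 to 405 CPM in treated Cdh11+/+ tumours, without overlap. Their part in the result was not tested.

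Dsg2, the main desmoglein of simple epithelia, stood at 94.7, 100 and 54.2 CPM in gemcitabine-treated Cdh11+/- tumours, against 104, 115 and 249 CPM in gemcitabine-treated Cdh11+/+ tumours. The gap between the nearest mice of the groups was small and the third Cdh11+/+ tumour stood far above the rest. The log2 difference was -0.91 ± 0.34 SE (edgeR adjusted p = 0.589) and -0.40 without that tumour. The gene of desmoplakin, which anchors keratin at the desmosome, averaged 309 ± 37.3 CPM in gemcitabine-treated Cdh11+/- tumours and 529 ± 185 CPM in gemcitabine-treated Cdh11+/+ tumours (SD, n = 3 each), with a log2 difference of -0.78 ± 0.35 SE that was -0.45 without the same tumour. Pard3, whose product helps place the junction belt, averaged 107 ± 20.0 CPM in treated Cdh11+/- tumours and 160 ± 9.17 CPM in treated Cdh11+/+ tumours (log2 -0.57 ± 0.23 SE, edgeR adjusted p = 0.606).

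Cldn6 (ENSMUSG00000023906, chr17:23679249-23682446 on the plus strand) was low in Cdh11+/- tumours under both conditions. With gemcitabine it stood at 1.68, 64.7 and 8.79 CPM in Cdh11+/- tumours, against 77.0, 176 and 143 CPM in Cdh11+/+ tumours. Without drug it stood at 36.5, 29.9 and 46.8 CPM in Cdh11+/- tumours, against 112, 98.9 and 140 CPM in Cdh11+/+ tumours. Each of the 6 Cdh11+/- tumours was thus below each of the 6 Cdh11+/+ tumours. The log2 difference was -2.40 ± 0.92 SE with gemcitabine (edgeR adjusted p = 0.591) and -1.63 ± 0.90 SE without it (edgeR adjusted p = 0.496). Under gemcitabine it was -4.65 without the second Cdh11+/- tumour and -1.85 without the first. Cldn9, whose gene ends 137 bases from the end of Cldn6 on the opposite strand, stood at 4.46, 8.04 and 27.3 CPM in treated Cdh11+/- tumours and 0.394, 4.79 and 1.01 CPM in treated Cdh11+/+ tumours. Without drug it stood at 10.9, 10.1 and 0.318 CPM in Cdh11+/- tumours and 0.419, 0.53 and 0.355 CPM in Cdh11+/+ tumours. The 0.318 CPM was the lowest of the 12 values of Cldn9, while the other 5 Cdh11+/- tumours lay at or above 4.46 CPM.

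Dsc3, desmocollin-3 of stratified epithelia, stood at 0.121, 4.19 and 4.59 CPM in gemcitabine-treated Cdh11+/- tumours, against 0.175, 0.0232 and 0.0959 CPM in gemcitabine-treated Cdh11+/+ tumours. The high values came from 180 and 229 counts in 2 tumours, and the first treated Cdh11+/- tumour, with 6 counts, lay among the Cdh11+/+ mice. The log2 difference of 4.87 ± 1.18 SE had an edgeR adjusted p of 0.546. The 13 markers of squamous epithelium summed to 61.0, 71.5 and 64.5 CPM in treated Cdh11+/- tumours and 91.8, 196 and 144 CPM in treated Cdh11+/+ tumours, without overlap. Single markers were split: of 9 tested, 4 had a log2 fold change above 0 and 5 below 0 (median -0.06). Ivl held 1054, 1730 and 683 counts in treated Cdh11+/- tumours and 2837, 3645 and 4765 counts in treated Cdh11+/+ tumours. Sfn overlapped, and its highest value of the 12 libraries, 2417 counts, lay in the third treated Cdh11+/- tumour. Krt5, of the same list, reached no more than 0.0932 CPM in the 3 treated Cdh11+/- tumours. Krt6a, Krt16 and Krt6b, keratins of stressed or stratified epithelia, had their highest values of the 12 libraries in the second treated Cdh11+/- tumour, where Dsc3 was also high, at 1.77, 1.84 and 0.536 CPM. Krt14, of the same marker list, held only 2 counts in that tumour. In the third treated Cdh11+/- tumour, where Dsc3 was highest, Krt6a, Krt16 and Krt6b held 11, 9 and 0 counts. The part of these markers in the Dsc3 values was not tested.

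Gemcitabine in Cdh11+/+ mice was the third comparison, against untreated Cdh11+/+ mice. The junction genes with the smallest p-values all had the higher mean in treated tumours, and 4 of the 5 were tight junction genes: Tjp3, Marveld3, Ocln and Cgn, with the plakophilin Pkp3 as the fifth. In the edgeR test 0 of the 35 and 0% of all genes passed, and DESeq2 called 0 of the 35. Of the 35, 5 (14.3%) had an unadjusted p under 0.05, against 8.60% of all genes. The log2 fold change was below 0 in 8 of the 35 (22.9%), against 48.9% of all genes, with medians of 0.27 over the 35 and 0.01 over all genes tested. The median of the 35 was 0.12 without the third treated tumour, 0.45 without the first treated tumour and 0.17 without the second untreated tumour. The groups did not overlap in 6 of the 35 (17.1%), against 13.7% of all genes, with Tjp3, Ocln, Marveld3 and Evpl higher and Cldn10 and Jam2 lower in treated tumours.

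Tjp3 stood at 53.6, 39.8 and 91.2 CPM in gemcitabine-treated Cdh11+/+ tumours, against the 29.1, 24.5 and 14.3 CPM of untreated Cdh11+/+ tumours, a 2.72-fold higher estimate (log2 1.44 ± 0.40 SE, edgeR adjusted p = 0.559). Marveld3, a membrane protein of the occludin and tricellulin family, stood at 19.2, 24.4 and 32.9 CPM in treated tumours, against 13.3, 11.3 and 3.41 CPM in untreated tumours (log2 1.45 ± 0.42 SE). Ocln stood at 40.8, 42.5 and 103 CPM in treated tumours, against 35.6, 31.9 and 24.2 CPM in untreated tumours (log2 1.02 ± 0.33 SE). In all 3 genes the groups were separate, but the third treated tumour, the one richest in keratins, was the highest each time, and without it the log2 difference was 1.05 for Tjp3 and 0.44 for Ocln. Pkp3, with 32.0, 63.3 and 82.0 CPM in treated tumours and 44.6, 26.5 and 14.9 CPM in untreated tumours, overlapped, as did Cgn, whose log2 difference of 0.75 ± 0.33 SE was 0.41 without the third treated tumour. In the same comparison acinar markers summed to 212, 6.21 and 32.1 CPM in treated tumours and to 9.46, 181 and 500 CPM in untreated tumours, and fibroblast markers to 14718, 6735 and 5832 CPM in treated tumours and 10893, 13187 and 17053 CPM in untreated tumours. Leukocyte and endothelial markers each had a log2 fold change below 0 in 10 of 10 (medians -1.03 and -0.68), as had islet markers (median -3.49). Keratins and duct markers were above 0 in 6 of 8 (median 0.62). Their part in the result was not tested.

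The fourth comparison set gemcitabine-treated against untreated Cdh11+/- mice. Most junction genes had the lower mean in treated tumours, led by Tjp3, Pkp2 and Pard3, while Dsc3 and the claudin Cldn1 had the higher mean. By edgeR 0 of the 35 passed, beside 0.00831% of all genes, and DESeq2 called 1, Dsc3. The unadjusted p was under 0.05 for 3 of 35 (8.57%), against 7.90% of all genes, and the groups did not overlap in 3 of 35 (8.57%), against 12.7% of all genes. The log2 fold change was below 0 in 25 of the 35 (71.4%), against 53.2% of all genes, with medians of -0.32 over the 35 and -0.03 over all genes tested. The median of the 35 was -0.13 without the second untreated tumour and -0.19 without the third treated tumour. Tjp3 stood at 40.7, 45.0 and 19.4 CPM in gemcitabine-treated Cdh11+/- tumours, against the 96.1, 60.7 and 74.1 CPM of untreated Cdh11+/- tumours, so that every treated tumour was below every untreated one. The log2 difference was -1.14 ± 0.40 SE (edgeR adjusted p = 0.593).

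The other separated genes had smaller differences. Pkp2, plakophilin-2 of simple epithelia and heart, stood at 41.9, 36.9 and 32.6 CPM in treated Cdh11+/- tumours, against 52.5, 48.6 and 53.0 CPM in untreated Cdh11+/- tumours (log2 -0.47 ± 0.21 SE, edgeR adjusted p = 0.623). Pard3 stood at 118, 84.3 and 119 CPM in treated tumours, against 140, 151 and 140 CPM in untreated tumours. Both separations were complete, and both differences were under 2-fold over their 95% intervals. Dsc3 held 6, 180 and 229 counts in treated tumours and 4, 2 and 12 counts in untreated tumours, so that again 1 treated tumour lay within the untreated range. Cldn1, a claudin of many epithelia and of skin, averaged 6.61 ± 3.34 CPM in treated tumours and 2.88 ± 1.62 CPM in untreated tumours (SD, n = 3 each), with overlap. Leukocyte markers had a log2 fold change above 0 in 10 of 10 (median 1.25). They summed to between 536 and 768 CPM in treated Cdh11+/- tumours and between 313 and 395 CPM in untreated Cdh11+/- tumours. Islet and endothelial markers were above 0 in 10 of 10 each (medians 4.19 and 0.42) and fibroblast markers in 9 of 10 (median 0.37). Keratins and duct markers were below 0 in 6 of 8 (median -0.42). The part of these markers in the result was not tested.

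**Figure D4:**
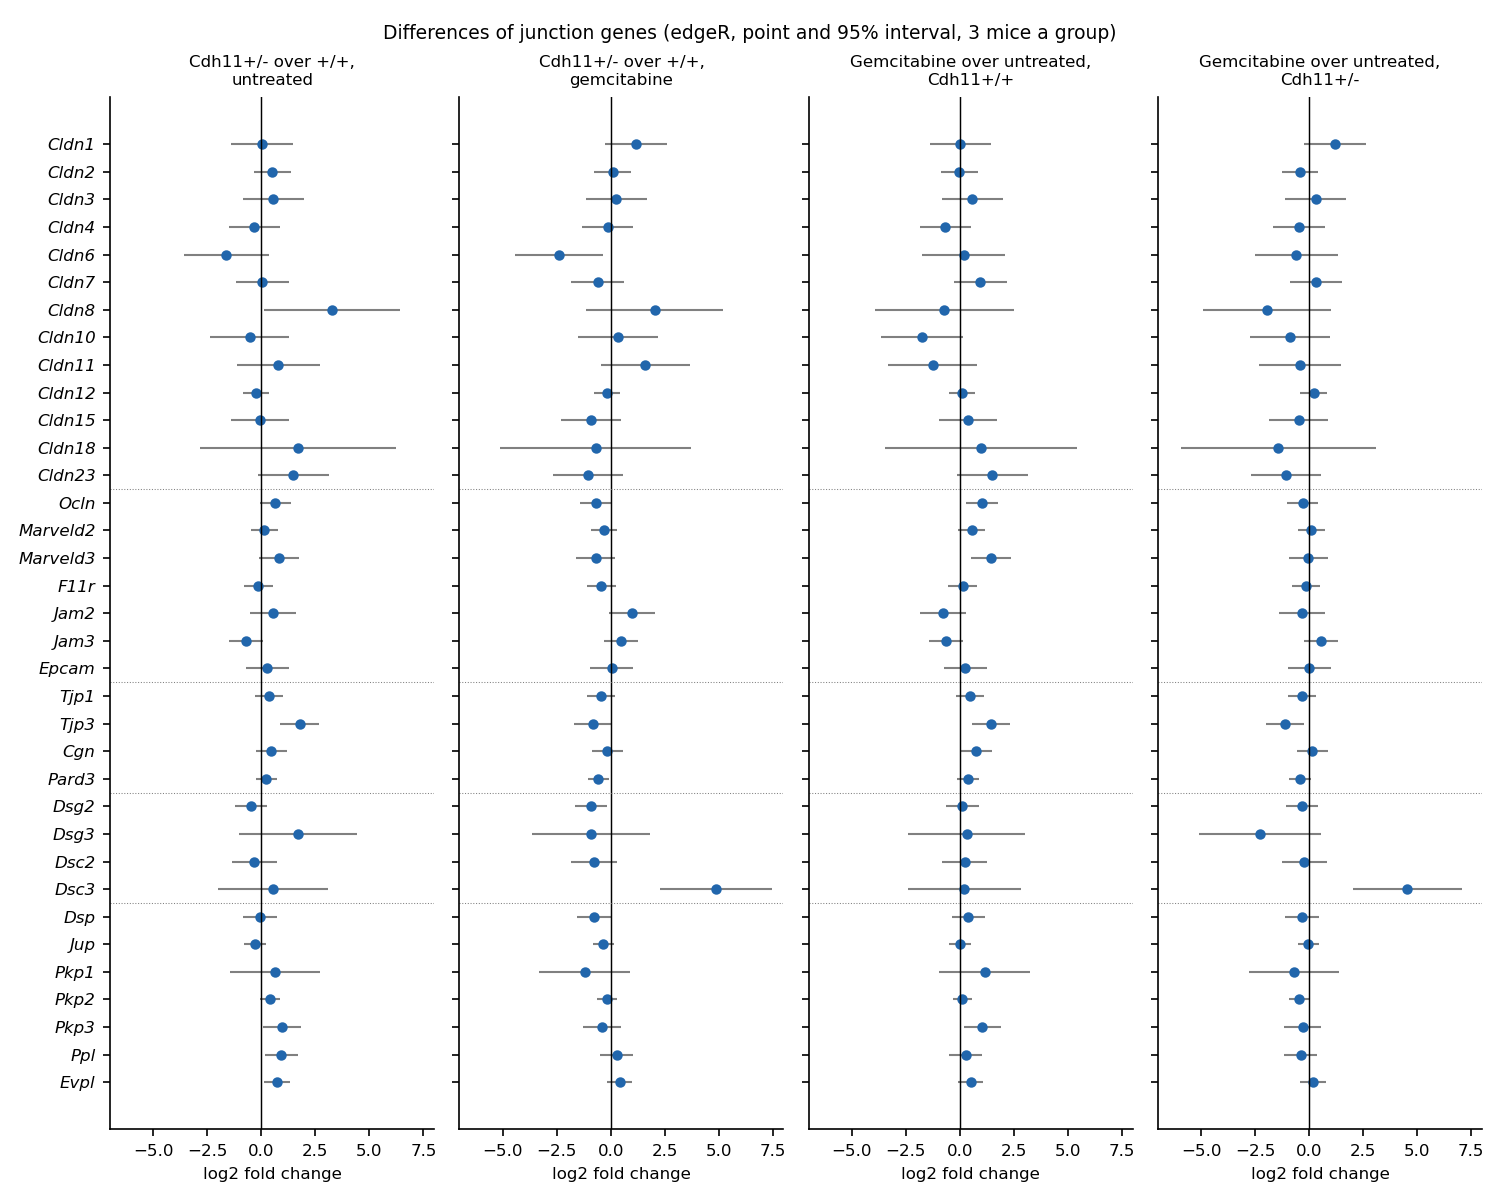
log2 fold changes of the 35 junction genes in the 4 pairwise comparisons, from edgeR, as points with 95% intervals (3 mice a group), ordered by role. Most intervals cross 0 and none passed the adjusted test; Tjp3 lies at 1.77 in the first panel and at -1.14 in the last, and Cldn18 and Cldn8 have the widest intervals in the first panel.

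The 4 comparisons share groups of mice, so they are not independent of each other. The difference of the gemcitabine effects, that in Cdh11+/- minus that in Cdh11+/+ mice, uses all 4 groups once. The edgeR test called 0 of the 35 and 0.00831% of all genes, and DESeq2 called 1, Tjp3. At an unadjusted p under 0.05 there were 8 of 35 (22.9%), against 12.7% of all genes. The difference was below 0 in 27 of the 35 (77.1%), against 54.2% of all genes, with a median of -0.58 over the 35 and -0.07 over all genes tested. By role, it was below 0 in 8 of 13 claudins, 5 of 7 other tight junction membrane proteins, 4 of 4 tight junction plaque proteins, 3 of 4 desmosomal cadherins and 7 of 7 desmosomal plaque proteins. Tjp3 had the smallest p-value, with a log2 difference of -2.58 ± 0.56 SE (95% interval -3.82 to -1.34, edgeR adjusted p = 0.252). Jam3, Cldn23 and Pkp3 were the others at an unadjusted p under 0.05. Ocln followed Tjp3 at -1.31 ± 0.47 SE, Dsc3 at 4.35 ± 1.63 SE, Marveld3 at -1.49 ± 0.59 SE and Pard3 at -0.80 ± 0.32 SE, with edgeR adjusted p-values of 0.298 to 0.337. Without the third gemcitabine-treated Cdh11+/+ tumour the value was -2.18 for Tjp3 and -0.73 for Ocln, and the median of the 35 was -0.38. Keratins and duct markers were below 0 in 7 of 8 (median -0.95) in the same contrast. Markers of leukocytes (median 2.71), fibroblasts (1.19), endothelium (1.09) and islet cells (7.07) were above 0 in 10 of 10 each, and their part in the result was not tested.

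Averaged over treatments, Cdh11+/- against Cdh11+/+ tumours showed a median log2 fold change of 0.06 over the 35 genes and 0.01 over all genes tested. None of the 35 passed the edgeR test, which 0.0332% of all genes did, and DESeq2 called 2, Dsc3 and Cldn6. The log2 fold change was below 0 in 17 of the 35 (48.6%), against 48.7% of all genes, and the unadjusted p was under 0.05 for 7 (20.0%), against 7.67% of all genes. The smallest p-values belonged to Dsc3 at log2 2.70 ± 0.81 SE, Cldn6 at -2.01 ± 0.64 SE, Evpl at 0.58 ± 0.19 SE, Dsg2 at -0.69 ± 0.24 SE and Cldn8 at 2.66 ± 1.02 SE. Cldn8 again rested on the first untreated Cdh11+/- tumour, without which it was 0.67, and Dsg2 was -0.44 without the third treated Cdh11+/+ tumour. The median of the 35 lay between -0.06 and 0.17 when each library was left out in turn. For Cldn6 the average amounted to 0.248 times the Cdh11+/+ level, with a 95% interval of 0.0932 to 0.659 (edgeR adjusted p = 0.466). It was -3.14 on the log2 scale and passed at an edgeR adjusted p of 0.0435 when the second treated Cdh11+/- tumour, the one with 64.7 CPM, was left out. Without the first treated Cdh11+/- tumour, the one with 1.68 CPM, it was -1.74 and did not pass.

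Averaged over genotypes, gemcitabine-treated against untreated tumours gave a median of 0.00 over the 35 genes and -0.01 over all genes tested. By edgeR 0 of the 35 passed, beside 0.00831% of all genes, and DESeq2 called 0. The log2 fold change was below 0 in 18 of the 35 (51.4%), against 50.9% of all genes, and the unadjusted p was under 0.05 for 3 (8.57%), against 4.45% of all genes. The smallest p-values were those of Dsc3 (log2 2.38 ± 0.82 SE), Marveld3 (0.70 ± 0.29 SE), the ion-selective claudin Cldn10 (-1.33 ± 0.60 SE), Cgn (0.45 ± 0.23 SE) and Evpl (0.34 ± 0.19 SE), each with an edgeR adjusted p of 0.942. Cgn was 0.27 without the third treated Cdh11+/+ tumour, and Evpl 0.20 without the third untreated Cdh11+/- tumour. With each library left out in turn the median of the 35 lay between -0.04 and 0.11. Here 19 of the 35 genes had a 95% interval that stayed within 2-fold in either direction, among them Cldn2, Epcam, Tjp1, Dsp and Jup. In the 4 pairwise comparisons that number was between 6 and 10, and in the difference of effects it was 2, Cldn12 and Jup. The intervals of the other genes reached beyond 2-fold.

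The remaining members gave no difference among the 5 smallest p-values of any comparison. Epcam lay between 108 and 520 CPM, with a median of 277 over the 12 tumours, and its log2 differences in the 4 pairwise comparisons were between 0.00 and 0.28. Tjp1 lay between 224 and 574 CPM, F11r between 87.7 and 209 CPM, and plakoglobin, Jup, between 120 and 241 CPM. Jup serves adherens junctions as well as desmosomes, and its log2 difference was -0.34 ± 0.22 SE for genotype in treated mice and closer to 0 in the other 3 pairwise comparisons. Cldn3 and Cldn4, neighbours on chromosome 5 that lie 39279 bases apart, and Cldn7 had their highest levels in different tumours: Cldn3 reached 94.7 CPM in the second treated Cdh11+/- tumour, Cldn4 325 CPM in the second untreated Cdh11+/- tumour, and Cldn7 94.7 CPM in the second treated Cdh11+/+ tumour. Cldn2 lay between 185 and 551 CPM, the widely expressed Cldn12 between 26.9 and 57.2 CPM, the cation claudin Cldn15 between 1.17 and 6.10 CPM, Cldn23 between 0.888 and 12.2 CPM, and the oligodendrocyte and Sertoli cell claudin Cldn11 at or below 0.885 CPM. Marveld2, tricellulin, lay between 12.6 and 36.7 CPM and Dsc2 between 18.5 and 84.8 CPM, each highest in the third treated Cdh11+/+ tumour. Of the junctional adhesion molecules that endothelium also expresses, Jam2 lay between 13.8 and 80.0 CPM and Jam3 between 3.93 and 10.8 CPM, and the exons of Jam3 overlap an antisense transcript with 1135 counts beside its own 3704.

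Further junction genes and their known regulators were counted from lists of related genes. None of 29 further tight junction genes, 4 further desmosome genes, 11 adherens junction genes, 14 epithelial regulators, 6 repressors and 5 partners of Epcam passed the edgeR test in any of the 7 comparisons. At an unadjusted p under 0.05, genotype in untreated mice gave 6 of 29 further tight junction genes (20.7%) and 3 of 6 repressors, against 12.2% of all genes, and 0 in the other 4 lists. Genotype in treated mice gave 5, 1, 1, 3, 1 and 0 genes in the order of the lists above, against 7.55% of all genes. Gemcitabine gave 5, 2, 1, 4, 1 and 1 genes in Cdh11+/+ mice, against 8.60%, and 3, 0, 0, 3, 1 and 0 in Cdh11+/- mice, against 7.90%. DESeq2 called Magi2, Cldn9 and Zeb2 for genotype in untreated mice, Magi2 for gemcitabine in Cdh11+/+ mice, Cldn9 for the genotype average, and Magi2, Ybx3, Esrp2 and Zeb2 for the difference of effects. In untreated mice, genes with the smallest p of their lists were the scaffold Magi2 (log2 -1.16 ± 0.29 SE), Amotl2 (-0.91 ± 0.25 SE), Pkp4 (0.50 ± 0.23 SE), Perp (0.95 ± 0.48 SE), Nectin3 (-0.43 ± 0.31 SE), Afdn (0.25 ± 0.24 SE) and the protease inhibitor Spint2 (0.60 ± 0.29 SE), each in Cdh11+/- against Cdh11+/+ tumours. In treated mice they were Ybx3 (-0.78 ± 0.25 SE), Pkp4 (-0.53 ± 0.23 SE), Perp (-0.84 ± 0.48 SE), the E-cadherin gene Cdh1 (-0.96 ± 0.25 SE), Vcl (-0.62 ± 0.29 SE) and Spint2 (-0.58 ± 0.29 SE). E-cadherin, the core of the adherens junction, stood at 456, 379 and 427 CPM in treated Cdh11+/- tumours, against 651, 738 and 1056 CPM in treated Cdh11+/+ tumours, without overlap.

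For gemcitabine against no drug in Cdh11+/+ mice the same lists gave Magi2 (log2 -1.28 ± 0.30 SE), the tricellular protein gene Lsr (0.82 ± 0.26 SE), Pkp4 (0.71 ± 0.24 SE), Perp (1.32 ± 0.49 SE), Cdh1 (0.60 ± 0.25 SE), Nectin3 (-0.60 ± 0.31 SE), Spint2 (0.83 ± 0.29 SE) and Prss8 (0.88 ± 0.54 SE). In Cdh11+/- mice they gave Ybx3 (-0.79 ± 0.25 SE), Pnn (-0.31 ± 0.19 SE), Pkp4 (-0.31 ± 0.23 SE), Cdh1 (-0.48 ± 0.25 SE), Nectin1 (-0.66 ± 0.48 SE), St14 (-0.55 ± 0.36 SE) and Spint2 (-0.35 ± 0.29 SE). Magi2, a scaffold beneath the junction, stood at 4.88, 3.16 and 4.08 CPM in gemcitabine-treated Cdh11+/+ tumours, against 11.9, 8.55 and 9.03 CPM in untreated Cdh11+/+ tumours. The untreated Cdh11+/+ group was the one that stood apart for Magi2, since all 9 other tumours lay between 3.06 and 5.48 CPM.

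The regulators fall into 14 genes of factors that promote epithelial character and 6 genes of repressors. For genotype in untreated mice, 13 of 14 epithelial regulators had a log2 fold change above 0 (median 0.69) and 6 of 6 repressors one below 0 (median -1.03), against a median of 0.04 over all genes tested. For genotype in treated mice, 12 of 14 epithelial regulators were below 0 (median -0.33) and so were 4 of 6 repressors (median -0.23), against a median of -0.03 over all genes tested. For gemcitabine in Cdh11+/+ mice, 13 of 14 epithelial regulators were above 0 (median 0.68) and 5 of 6 repressors below 0 (median -0.67), against 0.01 over all genes tested. For gemcitabine in Cdh11+/- mice, 13 of 14 regulators were below 0 (median -0.55) and 6 of 6 repressors above 0 (median 0.65), against a median of -0.03 over all genes tested. The leading genes by p in untreated mice were the splicing regulator Esrp2 (0.67 ± 0.31 SE), the epithelial ETS factor Elf3 (1.14 ± 0.56 SE), Zeb2 (-1.13 ± 0.26 SE) and Snai2 (-1.66 ± 0.54 SE). In treated mice they were Esrp2 (-0.92 ± 0.31 SE), the endodermal nuclear receptor gene Hnf4a (-0.95 ± 0.32 SE), Zeb2 (0.76 ± 0.26 SE) and Twist1 (-0.90 ± 0.98 SE). For gemcitabine in Cdh11+/+ mice they were the intestinal factor Cdx2 (4.35 ± 1.61 SE), the ETS factor Ehf (1.16 ± 0.49 SE), Zeb2 (-1.01 ± 0.26 SE) and Zeb1 (-0.65 ± 0.31 SE), and in Cdh11+/- mice Esrp2 (-0.91 ± 0.31 SE), Klf4 (-0.84 ± 0.30 SE), Zeb2 (0.88 ± 0.26 SE) and Twist2 (0.85 ± 0.60 SE).

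Zeb2, a repressor of epithelial junction genes that fibroblasts and myeloid cells also express, stood at 176, 174 and 223 CPM in gemcitabine-treated Cdh11+/- tumours, against 145, 97.2 and 95.6 CPM in gemcitabine-treated Cdh11+/+ tumours. It stood at 102, 129 and 79.6 CPM in untreated Cdh11+/- tumours, against 178, 293 and 210 CPM in untreated Cdh11+/+ tumours. In each treatment the genotypes were separate, in opposite directions, and the difference of effects was 1.89 ± 0.37 SE on the log2 scale (edgeR adjusted p = 0.252). Esrp2, an epithelial splicing regulator, stood at 42.1, 38.5 and 24.5 CPM in treated Cdh11+/- tumours and at 52.3, 62.6 and 83.4 CPM in treated Cdh11+/+ tumours. Leukocyte markers summed to 536, 733 and 768 CPM in treated Cdh11+/- tumours, 405, 289 and 237 CPM in treated Cdh11+/+ tumours, 395, 313 and 313 CPM in untreated Cdh11+/- tumours and 341, 999 and 479 CPM in untreated Cdh11+/+ tumours. Fibroblast markers summed to 8131, 6606 and 3946 CPM in treated Cdh11+/- tumours, 14718, 6735 and 5832 CPM in treated Cdh11+/+ tumours, 5351, 6808 and 4154 CPM in untreated Cdh11+/- tumours and 10893, 13187 and 17053 CPM in untreated Cdh11+/+ tumours. In untreated mice they did not overlap between the genotypes, as for Zeb2, whereas in treated mice they overlapped. The part of either marker list in the Zeb2 values was not tested.

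**Figure D5:**
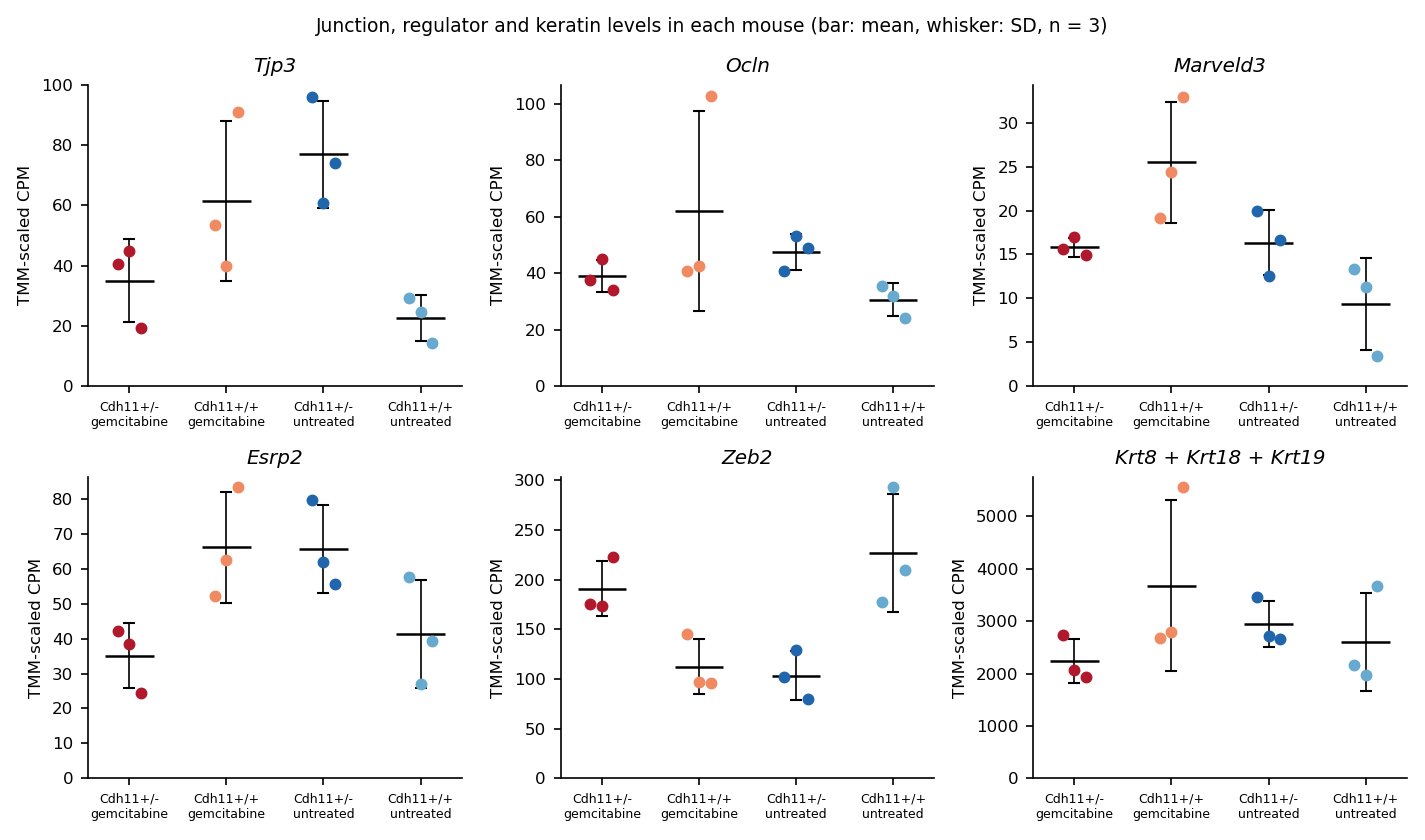
TMM-scaled CPM of Tjp3, Ocln, Marveld3, Esrp2, Zeb2 and the summed keratins Krt8, Krt18 and Krt19 in each tumour, with the mean as a bar and the SD as a whisker (n = 3). Tjp3 and Zeb2 separate the untreated genotypes in opposite directions, and the keratin sum overlaps between all groups.

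The starts of the junction genes were searched for CACCTG, the E-box that Snail and Zeb factors are known to bind, on both strands (CACCTG or CAGGTG). Windows of 300 bases, from 250 before to 50 after the annotated start, came from RefSeq on GRCm38.p6 and were found for 21 of the 35 genes, in 30 windows. The letters occurred in 14 of the 30 windows (46.7%) of 11 genes, against 20.2% of all 32851 windows. The GC box GGGCGG, also read on both strands, occurred in 21 of the 30 windows (70.0%), against 35.7% of all windows, and TATAAA in 4 of 30 (13.3%), against 13.6%. The windows of a gene can overlap, and a match describes the letters only. Printed here 5′ to 3′ with the E-box in capitals are both windows of Tjp3, which had the smallest p of the 35 in 3 of the 7 comparisons, and 1 window each of Ocln, Cldn6 and Cldn4, which hold the E-box 2 times. They lie on GRCm38.p6 at chr10:81291218-81291517 and chr10:81291532-81291831 (both minus strand) for Tjp3, at chr13:100552449-100552748 (minus) for Ocln, at chr17:23679115-23679414 (plus) for Cldn6 and at chr5:134946885-134947184 (minus) for Cldn4.
Tjp3, first window: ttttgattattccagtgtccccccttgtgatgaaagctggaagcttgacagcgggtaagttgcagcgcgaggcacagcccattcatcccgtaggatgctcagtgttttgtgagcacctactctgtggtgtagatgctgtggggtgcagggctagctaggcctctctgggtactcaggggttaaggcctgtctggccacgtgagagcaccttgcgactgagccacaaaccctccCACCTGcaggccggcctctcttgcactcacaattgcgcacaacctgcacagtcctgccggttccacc
Tjp3, second window: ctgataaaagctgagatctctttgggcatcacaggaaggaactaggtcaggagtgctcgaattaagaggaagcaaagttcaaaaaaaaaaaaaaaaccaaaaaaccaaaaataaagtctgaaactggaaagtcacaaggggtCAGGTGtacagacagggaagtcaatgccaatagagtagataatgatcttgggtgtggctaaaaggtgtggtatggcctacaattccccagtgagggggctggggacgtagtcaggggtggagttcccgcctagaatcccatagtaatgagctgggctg
Ocln: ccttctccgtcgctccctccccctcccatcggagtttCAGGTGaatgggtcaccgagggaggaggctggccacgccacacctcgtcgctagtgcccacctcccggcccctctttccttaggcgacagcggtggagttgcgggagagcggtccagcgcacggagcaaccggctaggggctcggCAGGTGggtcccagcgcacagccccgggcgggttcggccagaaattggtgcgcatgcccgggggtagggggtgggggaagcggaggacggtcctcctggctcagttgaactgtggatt
Cldn6: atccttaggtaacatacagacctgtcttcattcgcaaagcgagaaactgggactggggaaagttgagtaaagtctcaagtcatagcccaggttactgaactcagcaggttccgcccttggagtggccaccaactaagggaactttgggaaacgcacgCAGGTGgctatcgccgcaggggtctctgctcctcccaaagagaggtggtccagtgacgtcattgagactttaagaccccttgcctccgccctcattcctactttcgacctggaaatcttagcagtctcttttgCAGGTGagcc
Cldn4: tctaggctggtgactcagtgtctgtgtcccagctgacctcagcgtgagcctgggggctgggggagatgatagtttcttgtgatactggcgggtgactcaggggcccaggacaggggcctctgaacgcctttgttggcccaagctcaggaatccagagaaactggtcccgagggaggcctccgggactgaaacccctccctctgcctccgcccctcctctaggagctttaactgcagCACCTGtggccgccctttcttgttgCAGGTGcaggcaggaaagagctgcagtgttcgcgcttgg
Counted from the 5′ end of each window, the E-box began at base 234 in the first Tjp3 window and 143 in the second, at 38 and 183 in Ocln, at 158 and 291 in Cldn6, and at 237 and 262 in Cldn4. Not printed are a window each of Epcam and Cldn7, which also hold the E-box 2 times, and one of Pard3, which holds it 3 times. Of the genes printed, Cldn6 was low in all Cdh11+/- tumours, and Tjp3 was higher in untreated Cdh11+/- than in untreated Cdh11+/+ tumours. Cldn4 overlapped between the genotypes in each treatment. It stood at 178, 135 and 116 CPM in treated Cdh11+/- tumours and 85.4, 118 and 270 CPM in treated Cdh11+/+ tumours. Without drug it stood at 222, 325 and 56.0 CPM in Cdh11+/- tumours and 275, 245 and 234 CPM in Cdh11+/+ tumours. Members with and without the E-box were not compared, and its part in these values was not tested.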

How the data were processed

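RNA from snap-frozen tumours was sequenced as stranded, rRNA-depleted total RNA, 1 library a mouse, per the labels' protocols. The deposited values are RSEM expected counts for Ensembl genes on GRCm38, per the submitters' processing notes, and all of them were whole. The RSEM version, aligner, annotation and strand setting were not stated in the sources used. Genotype, treatment and replicate came from the sample titles. Symbols and exon lengths came from GENCODE M21 (GRCm38) for 52489 of 52636 IDs; the other 147 held 0.0452% of counts.

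Genes kept by filterByExpr (24065) were fitted in R 4.3.3 with edgeR 4.0.16: TMM scaling (factors 0.897 to 1.09), robust quasi-likelihood fits of 4 group means to all 12 libraries (biological coefficient of variation 46.4%), 7 comparisons, and a Benjamini-Hochberg adjusted p of 0.05 over every gene tested as the threshold. Intervals are 95% and include the spread between mice. Levels between genes are CPM per kb of union exon. The test was also run on simulated counts with known changes, whose outcome is not reported here. Alternatives were DESeq2 1.42.0, RLE size factors, no filter, a replicate block, only the libraries of the 2 groups, and leaving out each library.

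Per comparison, the 5 members with the smallest p are named where none passed, the 3 most abundant per role, and up to 2 genes per pathway list, a few of which are not reported here. The members, lists and rules were chosen with earlier results of these data known. Promoter windows came from RefSeq (GRCm38.p6), for 21 of 35 members.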

Additional observations from a re-analysis of the deposited data

Results flagged for a closer look

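The gemcitabine difference of Tjp3 ran in opposite directions in the genotypes. Every gemcitabine-treated Cdh11+/- tumour was below every untreated Cdh11+/- tumour, and every gemcitabine-treated Cdh11+/+ tumour was above every untreated Cdh11+/+ tumour. The log2 difference between the effects, that in Cdh11+/- minus that in Cdh11+/+ mice, was -2.58 ± 0.56 SE. Its edgeR adjusted p of 0.252 did not pass, and DESeq2 gave 0.00581. Tjp3 was the single gene of the 35 with this arrangement of its 4 groups. How many of all genes tested share the arrangement was not counted, so it cannot be called unusual. Apba3, whose last exon overlaps that of Tjp3, had a log2 difference of -0.11 in the same contrast.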

How the results depend on the processing

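With DESeq2, the number of junction genes called was 1 for genotype in untreated mice (Tjp3, adjusted p = 0.00543), 1 for genotype in treated mice (Dsc3, 0.00205), 1 for gemcitabine in Cdh11+/- mice (Dsc3, 0.00697), 2 for the genotype average (Dsc3, 0.0421, and Cldn6, 0.0495) and 1 for the difference of effects (Tjp3, 0.00581), where edgeR called 0 in each; the cause was not tested. Over all genes DESeq2 called 674, 230, 97, 166, 316, 29 and 618 for genotype untreated, genotype treated, gemcitabine in Cdh11+/+, gemcitabine in Cdh11+/-, genotype average, gemcitabine average and difference of effects, where edgeR called 4, 1, 0, 2, 8, 2 and 2. Whether the share of junction genes called by DESeq2 exceeded that of all genes was not tested. Without the filter on low counts edgeR called 10 genes for genotype in untreated mice, and with only the libraries of the 2 groups 2 there and 12 for genotype in treated mice. Leaving out 1 library gave 2 to 12, 0 to 4, 0 to 1, 2 to 9, 3 to 13, 2 to 7 and 2 to 7 genes in the same order, and 0 junction genes except 0 to 1 for the genotype average (Cldn6 without the second treated Cdh11+/- tumour). Cldn8 reversed to -0.71 for genotype in untreated mice without the first untreated Cdh11+/- tumour, within a range of -0.71 to 3.84.

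The sample titles do not say that equal replicate numbers mark paired mice. Same-numbered libraries of different groups correlated between -0.25 and 0.17 in their deviations. Of 18 such pairs, 4 exceeded 0.1, and 4 of 12 libraries correlated best with their own number. With 3 libraries a group these correlations cannot exclude pairing. With the number as a block, 0 junction genes were called in each comparison, and 4 genes for the genotype average and 0 for genotype in treated mice over all genes. Of the named genes' results under all alternatives, 571 kept direction and side of the threshold, 7 passed newly and 1 reversed. With 3 mice a group the median width of a 95% interval was 1.81 to 1.84 on the log2 scale in the pairwise comparisons and 2.58 for the difference of effects, and counting depth limited Dsc3, Cldn8 and Cldn11, whose means lay below 1 CPM.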
